A study of Emberiza melanocephala with 15 samples.

Results

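The 150 assembled genes described here had lower read levels in the hypothalamus of both photorefractory blackheaded buntings (Emberiza melanocephala) of hour 18 than in any of the other 13 birds. They were chosen from 317533 assembled genes by their measured levels. Estimated counts were summed over the transcripts of each gene and scaled to the library total, as CPM. The 15463 genes with a count of at least 20 in all 13 other libraries were ranked by the gap, which is the lowest log2(CPM + 1) of those 13 minus the higher log2(CPM + 1) of the 2 photorefractory libraries of hour 18, and the 150 largest gaps were taken. The low level at hour 18 in the photorefractory state is therefore how the genes were found, so its values are given as a description without a test. The study followed the response to a first long day in wild-caught adult males of 2 states. Photosensitive birds were held on short days, with 6 h of light and 18 h of darkness before the experiment, and photorefractory birds on 16 h of light and 8 h of darkness, so that state and earlier light history cannot be told apart. On the sampling day light-off was removed, and hypothalami were collected at hours 10, 14, 18 and 22 after light onset. There were 2 birds and 2 libraries per state and hour, except 1 photorefractory bird at hour 22, since the study's methods state that the other sample failed quality control. The birds thus made 8 groups, with 8 photosensitive and 7 photorefractory birds.

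Photosensitive songbirds answer a long day with a hypothalamic response that leads to gonadal growth, whereas photorefractory birds have regressed gonads and no longer answer long days. In birds the first long day is read in the mediobasal hypothalamus, where thyrotropin from the pars tuberalis raises local thyroid hormone activation through the deiodinase DIO2. A Trinity assembly groups similar read paths into a component, splits the component into genes and the genes into transcripts, and a single real gene may be broken into several short assembled genes. The files used here pair these identifiers with no gene name, so members are given by identifier and without a function. For the same reason the tissue label was not checked against marker genes.

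Both photorefractory libraries of hour 18 stood apart from the rest. They were the shallowest, with 3441451 and 3176062 estimated counts against 4306137 to 9403923 in the other 13. Their mean fragment lengths, estimated as length minus effective length for transcripts above 2000 nt, were 230 and 208 nt against 241 to 262 nt. Their 10 most abundant genes took 5.69% and 5.72% of the counts, against 2.61% to 4.62%. The part of depth, fragment length and this share in the low level of the members was not tested, and because both birds of the group share these values, they cannot be told apart from the group. A count of 3, the limit that a count of 0 allows, was worth 0.872 and 0.945 CPM in these libraries and 0.319 to 0.697 CPM in the others, for counting error only. Since whole hypothalami were sequenced, fewer cells of a type and less RNA per cell cannot be told apart either.

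Summed over the 150 members, the level was 716 and 738 CPM in the hour 18 photorefractory birds. It was 4133 and 4840 CPM in the photosensitive birds of the same hour. In the photorefractory state the sum was 4605 and 4211 at hour 10, then 4246 and 3854 at hour 14, and 4045 CPM in the bird of hour 22. In the photosensitive state it was 4542 and 5176 at hour 10, then 6212 and 4428 at hour 14, and 3253 and 3602 CPM at hour 22. The sum thus ranged from 3253 to 6212 CPM in the 13 libraries, highest in a photosensitive bird of hour 14 and lowest in a photosensitive bird of hour 22. The median member was at 2.32 and 2.52 CPM in the hour 18 photorefractory birds and at 13.5 to 23.7 CPM elsewhere. Over all 15463 genes of the count filter the median was 24.4 and 23.9 CPM in those 2 birds and 24.1 to 27.2 CPM in the other 13.

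**Figure D1:**
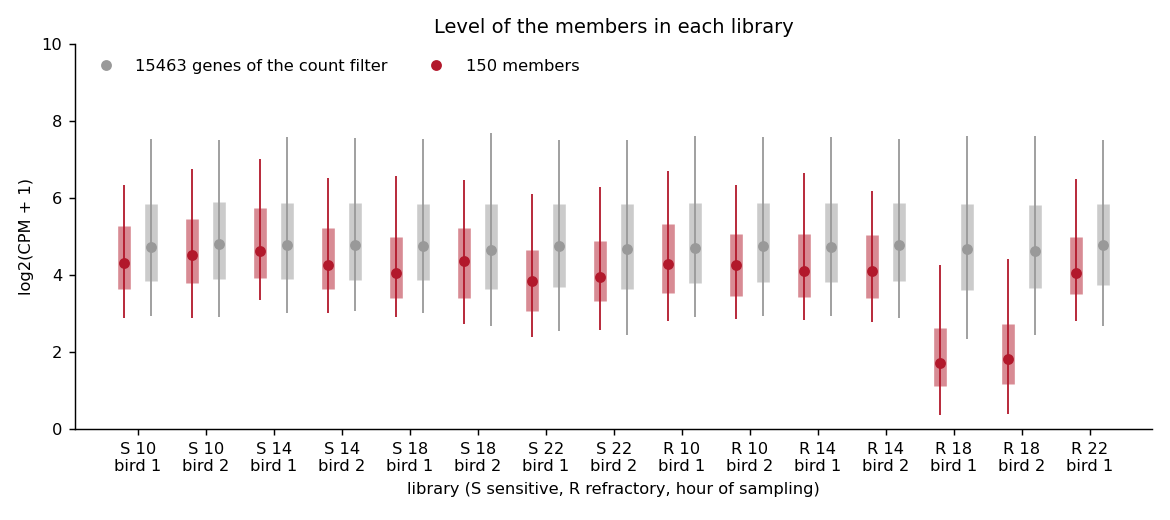
Level of the members (red) and of all genes that passed the count filter (grey) in each library, as log2(CPM + 1). Points are medians over genes, thick bars run from the first to the third quartile and thin bars from the 5th to the 95th percentile. The members' medians are 1.73 and 1.82 in the photorefractory birds of hour 18 (R 18), while the grey medians are 4.67 and 4.64 there.

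The log2(CPM + 1) of the 2 photorefractory birds of hour 18 differed by a median of 0.34 over the members, from which nothing is read, since the rule required both to be low. For 149 members the mean of the 13 libraries was 2.83 to 280 times that of the photorefractory birds of hour 18, with a median of 6.55. The ratio was above 4 for 130 members, above 10 for 39 and above 20 for 14. The remaining member had no count in either bird, and 12 members had none in 1 bird. The higher of the 2 counts was at most 5 for 38 members and had a median of 10 over all 150, so most of these ratios rest on few reads. For 41 members at least 1 of the birds had a count of 20 or more, up to 138. The rule requires that count in the other 13 libraries and not in these. In TPM, where the deposited values are also scaled by effective length, both birds were below the other 13 for 148 of 150 members. The exceptions were TRINITY_DN97175_c2_g1 and TRINITY_DN90584_c4_g1, named here for that reason. TPM comes from the same counts, so the rule made this nearly certain, and it is not separate evidence. The rule run on TPM kept 97 of the 150 members. With a gap above 0, 1493 of the 15463 genes (9.66%) had both birds below the other 13, and the members are the upper end of that group.

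The single photorefractory bird of hour 22 was compared with the 4 photorefractory birds of hours 10 and 14. Its CPM was within their range for 57 members, above all 4 for 44 (29.3%) and below all 4 for 49 (32.7%). Over the filtered genes it was above all 4 for 31.2% and below all 4 for 39.5%. With 1 bird this course has no replicate at its last hour.

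TRINITY_DN94273_c3_g3, with a longest transcript of 274 nt, had the largest gap, 2.48 on the log2 scale. Its CPM in the photosensitive birds was 24.4 and 13.9 at hour 10, 17.0 and 22.3 at hour 14, 9.62 and 18.5 at hour 18, and 6.33 and 11.9 at hour 22. In the photorefractory birds it was 22.7 and 20.8 at hour 10, 10.4 and 13.4 at hour 14, 0 and 0.315 at hour 18, and 15.1 at hour 22. The hour 18 values rest on 1 count in both photorefractory birds together. The mean of the other 13 was 105 times the pooled level (exact Poisson 95% interval 18.9 to 4148). That interval holds counting error of these counts only. It does not allow for the choice of the gene by this same contrast, so it is a description. Among the 13 other libraries the values of both states overlapped.

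TRINITY_DN89268_c2_g1, a single transcript of 464 nt with a gap of 2.42, had no count in either photorefractory bird of hour 18. Its CPM in the photosensitive birds was 14.1 and 16.7 at hour 10, 12.9 and 8.96 at hour 14, 8.67 and 9.15 at hour 18, and 4.34 and 4.79 at hour 22. In the photorefractory birds it was 16.8 and 16.7 at hour 10, 9.03 and 12.3 at hour 14, and 7.26 at hour 22. Its mean over the 13 libraries, 10.9 CPM, was at least 11.5-fold higher than the floor of 3 counts in the shallower library. Outside the photorefractory birds of hour 18, the birds of hour 22 were lowest, below all 4 birds of hour 10.

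TRINITY_DN85616_c3_g1 followed with a gap of 2.40. This single transcript of 807 nt had 3.78 and 2.2 CPM in the hour 18 photorefractory birds, from counts of 13 and 7, and 24.2 to 80.1 CPM in the other 13, with a median of 36.9. TRINITY_DN98132_c3_g2, a single transcript of 211 nt with a gap of 2.36, was at 0.291 and 0 CPM, from 1 count, against 5.61 to 19.2 CPM with a median of 12.8. For this gene the ratio to the pooled level was 85.5 (exact Poisson 95% interval 15.4 to 3377, which again leaves out the choice of the gene). Of the 4 members with the largest gaps, 3 had their lowest value among the 13 libraries in the same photosensitive bird of hour 22, and TRINITY_DN98132_c3_g2 had it in a photosensitive bird of hour 18.

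**Figure D2:**
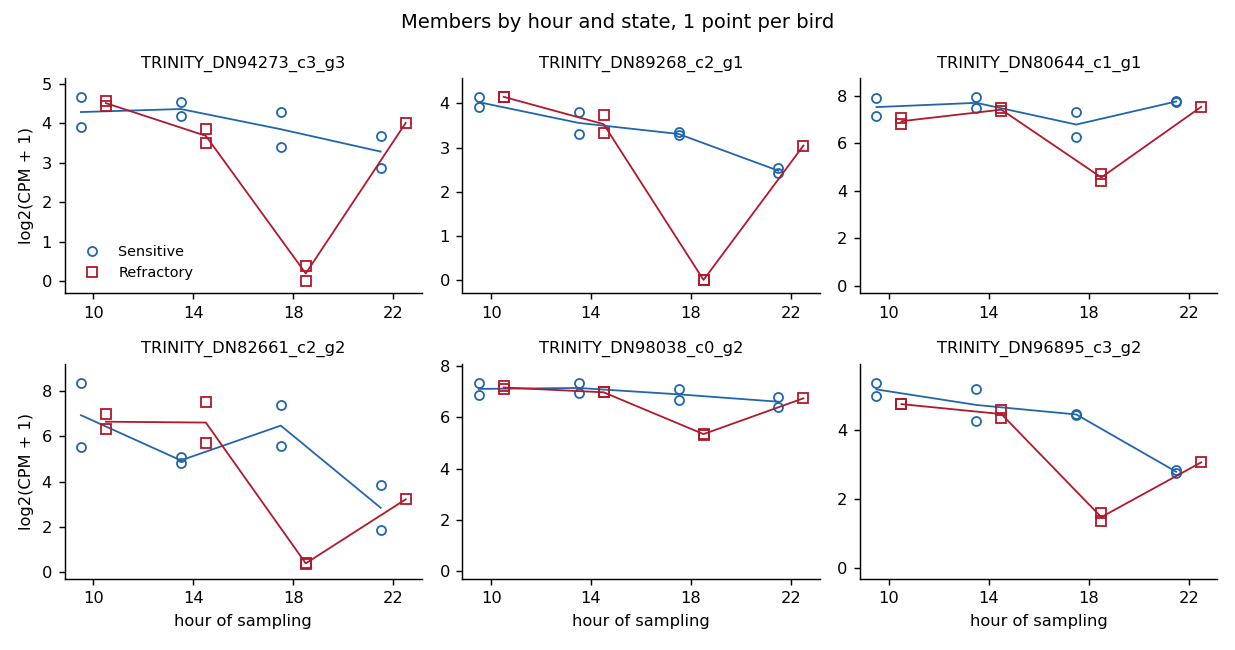
log2(CPM + 1) of 6 members against hour of sampling, with 1 point per bird, blue circles for photosensitive and red squares for photorefractory birds (drawn slightly apart), and lines through the group means. In all 6 the 2 photorefractory birds of hour 18 lie below the other 13 points, as the rule requires, while TRINITY_DN82661_c2_g2 also spans 2.60 to 326 CPM among those 13.

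By level per length, the members reached far up. The 4 members with the highest mean log2(TPM + 1) over the 13 libraries were TRINITY_DN80644_c1_g1, TRINITY_DN95212_c2_g1, TRINITY_DN82661_c2_g2 and TRINITY_DN92278_c3_g1. TRINITY_DN80644_c1_g1, with a longest transcript of 1672 nt, had a mean of 453 TPM over the 13 libraries, between 162 and 685 TPM, and 55.8 and 54.9 TPM in the photorefractory birds of hour 18. In CPM it was at 20.6 and 24.9 there, from counts of 71 and 79, and at 75.1 to 244 elsewhere. TRINITY_DN95212_c2_g1 (454 nt) had 251 to 629 TPM in the 13 libraries and 87.3 and 93.3 TPM in those 2 birds. TRINITY_DN92278_c3_g1 (489 nt) had 252 to 655 TPM and 54.4 and 58.5 TPM. In these 3 genes the low values rest on 69 to 89 counts per bird. That both photorefractory birds of hour 18 lay below all others in CPM follows from the rule.

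TRINITY_DN82661_c2_g2, with a longest transcript of 270 nt, was the most variable member, with an SD of log2(CPM + 1) of 1.84 over the 13 libraries. Its CPM in the photosensitive birds was 326 and 44.4 at hour 10, 32.6 and 26.8 at hour 14, 167 and 46.0 at hour 18, and 2.60 and 13.2 at hour 22. In the photorefractory birds it was 125 and 78.4 at hour 10, 182 and 50.8 at hour 14, 0.291 and 0.315 at hour 18, from 1 count each, and 8.27 at hour 22. The birds of hour 22 were thus below those of hour 10 in both states, and birds of the same group differed up to several-fold. The mean of the 13 was 281 times the pooled level of the photorefractory birds of hour 18 (exact Poisson 95% interval 77.7 to 2318). This interval too is for counting error only and leaves out the choice of the gene. Its TPM ran from 27.7 to 2880, and since the transcript is hardly longer than the mean fragment, the effective length by which TPM divides is small.

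The members that kept the highest level in the photorefractory birds of hour 18 had the highest counts there. TRINITY_DN98038_c0_g2, a single transcript of 487 nt, had 40.1 and 39.0 CPM there, from counts of 138 and 124, against 84.0 to 161 CPM in the other 13 with a median of 125. TRINITY_DN88312_c0_g1 (1288 nt) had 30.5 and 26.5 CPM against 94.8 to 270 with a median of 139. TRINITY_DN97288_c2_g4 (905 nt) had 20.1 and 26.5 CPM against 53.7 to 92.3 with a median of 65.5, and its SD of log2(CPM + 1) over the 13 was 0.22. The mean of the 13 was 3.17, 5.28 and 2.91 times that of those birds in these genes, in this order, and TRINITY_DN92278_c3_g1, which is also in this group, had a ratio of 5.98.

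At the threshold the groups were still apart, as a positive gap requires. The last members were TRINITY_DN90488_c2_g1, with a gap of 0.98, 9.05 CPM in the lowest of the 13 libraries and 2.03 and 4.09 CPM in the hour 18 photorefractory birds, and TRINITY_DN92284_c6_g2, with a gap of 0.98, 22.7 CPM and 7.85 and 11.0 CPM. Just outside were TRINITY_DN87061_c0_g1, with a gap of 0.97, 6.07 CPM in the lowest of the 13 and 2.62 and 1.26 CPM, and TRINITY_DN81140_c0_g2, with a gap of 0.97, 4.37 CPM and 1.74 and 0.630 CPM. The gap thus had no break at the 150th gene.

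The members were short. The longest transcript of a member had a median of 896 nt, with quartiles of 593 and 1318 nt, against a median of 1944 nt and quartiles of 1011 and 3482 nt over all genes of the count filter. The 150 genes with the largest excess of both photorefractory birds of hour 18 over the other 13 had a median of 594 nt. Their count filter was set in these 2 libraries instead, so that list came from another set of genes. Its length is therefore not set against that of the members. The genes of the members' count filter were divided into 5 equal classes by that length. Of the members, 73 fell in the shortest class (201 to 856 nt) and 49 in the next (857 to 1537 nt), then 17, 9 and 2. The 2 members in the longest class were TRINITY_DN86893_c0_g1 (5234 nt) and TRINITY_DN85418_c0_g1 (5364 nt), which are named for that reason. The first had 2.03 and 2.52 CPM in the hour 18 photorefractory birds against 8.12 to 28.1 CPM elsewhere. The second had 1.45 and 1.57 CPM against 4.23 to 11.7 CPM. The whole filtered set followed length too, since both photorefractory birds of hour 18 were below the other 13 in 14.1% of the genes of the shortest class, 13.8%, 8.15% and 6.66% of the next 3 and 5.53% of the longest. Both were above the other 13 in 6.88%, 5.37%, 6.02%, 5.63% and 6.11%. The shorter fragments of these libraries stand beside this trend, and their part in it was not tested. Within the members, the gap and the length had a Spearman correlation of -0.11, and the gap and the mean CPM over the 13 one of 0.08, as descriptions across 150 genes that share their libraries.

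**Figure D3:**
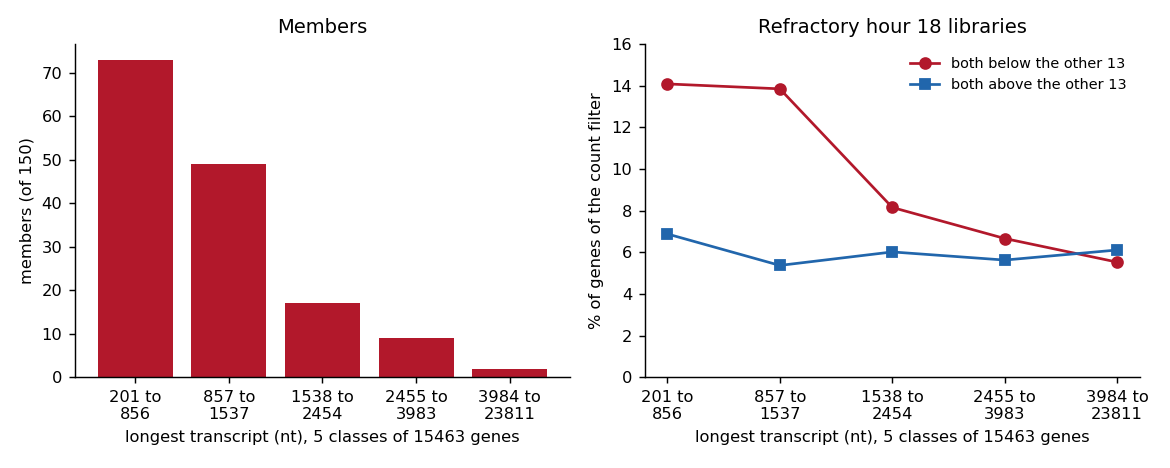
Left, number of members in each of 5 equal classes of the genes that passed the count filter, by length of the longest transcript in nt. Right, percentage of all genes of the class with both photorefractory libraries of hour 18 below (red circles) or above (blue squares) the other 13. Members fall from 73 to 2 along the classes, and the red share from 14.1% to 5.53%, while the blue share stays between 5.37% and 6.88%.

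The members held 899 transcripts, with a median of 4 per gene against 3 over the filtered genes, and 34 members had 1 transcript. Of these transcripts 815 had a count above 0 in at least 1 of the 13 libraries and 297 in at least 1 of the photorefractory libraries of hour 18. These numbers are not like for like, since more and deeper libraries stand against the shallowest ones. No share over all transcripts is given beside them, so no loss of transcripts is read from them. Among the 149 transcripts with a count of at least 5 in each of the 13, which belonged to 127 members, 139 were below all 13 in both birds of hour 18. Over all transcripts with such counts 9.23% were, a share given only for scale because the rule used this contrast. A single transcript of a member, TRINITY_DN88052_c2_g3_i6, was higher in both birds than in the other 13, at 1.16 and 0.630 CPM against at most 0.421. In the 116 members with several transcripts, the most abundant one took a median of 81.3% of the counts over the 13 libraries. TRINITY_DN92618_c1_g1 and TRINITY_DN85180_c1_g1 had the most transcripts, 33 and 27. At hour 18 the photorefractory birds had 14.5 and 6.93 CPM of the first against 48.0 to 124 CPM elsewhere, and 0.872 and 2.83 CPM of the second against 8.08 to 21.3 CPM.

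The rule ranked each gene by its own counts, so the other genes of a member's component did not enter that member's gap, although those that passed the count filter were ranked too. Genes of a component can share reads or be pieces of a single real gene, so neighbours are not independent of the member. The shares below are a description, and the filtered genes beside them were not matched to the members for length. The members came from 147 components, and 29 members were the only gene of theirs. For the other 121, the summed CPM of the remaining genes of the component was below all 13 libraries in both photorefractory birds of hour 18 in 25 cases (20.7%) and above them in 1 (0.826%). Over the 13229 filtered genes with such neighbours the shares were 7.65% and 4.2%. The median difference between the mean of these birds and that of the 13 was -0.55 on the log2(CPM + 1) scale for the neighbours of members and -0.17 for those of all filtered genes, whereas it was -2.30 for the members themselves and -0.10 for the filtered genes. The mean of the neighbours was lower in the photorefractory birds of hour 18 for 107 members and higher for 14. No such split is given for the filtered genes, whose neighbours also had a median below 0, so this split has no background. Without the 5 members whose neighbours include another member, a restriction chosen after seeing the data, 21 of 116 (18.1%) had neighbours below all 13. Where the neighbours had a count of at least 20 in each of the 13 libraries, they were below all 13 for 21 of 53 members (39.6%) and for 9.51% of the filtered genes, and without those 5 members for 17 of 48 (35.4%).

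Of the exceptions, TRINITY_DN84051_c0_g3 (named because it is the single such case) was at 2.62 and 1.89 CPM in the hour 18 photorefractory birds against 7.07 to 27.3 CPM elsewhere, while its neighbours averaged 99.4 CPM there and 72.6 CPM in the 13. Their excess over the highest of the 13 was only 0.0023 on the log2 scale. The neighbours of TRINITY_DN82661_c2_g2 averaged 167 CPM in those birds and 127 CPM in the 13, with overlapping libraries. In the other direction, 3 members were genes of a single component. TRINITY_DN100320_c4_g2 (2621 nt) had 4.07 and 2.52 CPM in the hour 18 photorefractory birds against 19.5 to 93.8 CPM elsewhere, TRINITY_DN100320_c4_g4 (399 nt) had 1.74 and 2.52 CPM against 8.92 to 69.5 CPM, and TRINITY_DN100320_c4_g1 (1910 nt) had 2.62 and 1.26 CPM against 6.36 to 38.1 CPM. TRINITY_DN98132_c3_g2 and TRINITY_DN98132_c3_g6 shared another component. Genes of a component can share reads through similar sequence, so these 5 members are not separate observations. A list built the opposite way, the 150 genes with the largest excess of both photorefractory birds of hour 18 over the other 13, came from 144 components, and 0 of them held a member. The filtered genes came from 12982 components and the members from 147. Few shared components are likely for any 2 such short lists, so nothing is read from the 0.

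**Figure D4:**
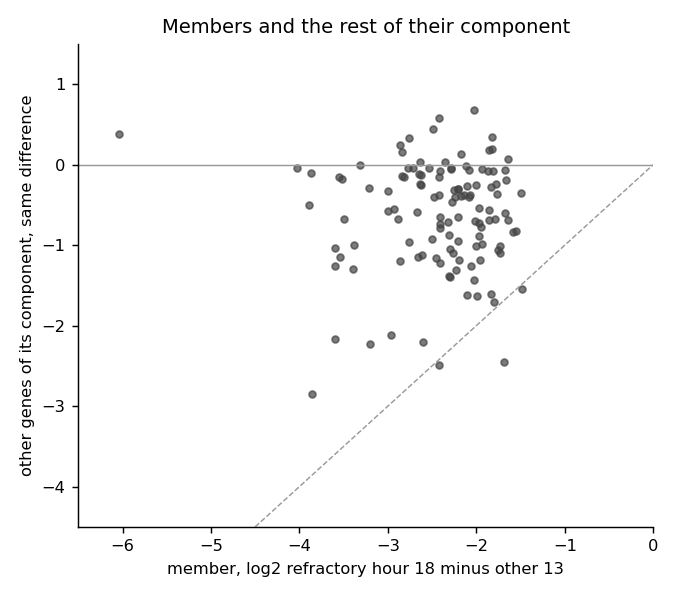
Difference between the photorefractory birds of hour 18 and the other 13 libraries, in log2(CPM + 1) of the group means, for 121 members (x axis) and for the other genes of the same component summed (y axis), with 1 point per member. The dashed line marks equal differences and the solid line no difference for the neighbours. Most points lie between the lines, with a median of -0.55 for the neighbours.

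Variation among the 13 other libraries was described for the members beside the filtered genes. The SD of log2(CPM + 1) over the 13 had a median of 0.44 in the members and 0.41 in the filtered genes, and 8 members were above 1. Between the 2 birds of a group the median difference in log2(CPM + 1) was larger in the members than in the filtered genes in all 6 other groups of 2 birds, at 0.41 against 0.22 in the photosensitive birds of hour 14, where the medians lay furthest apart, and at 0.31 against 0.29 in the photorefractory birds of hour 14, where they lay closest. The members also had lower levels, with a median mean of 18.9 CPM over the 13 against 26.8 CPM. The part of counting error in these differences was not tested. The lowest of the 13 was a bird of hour 22 for 68 members (45.3%) against 42.1% of the filtered genes, and a photosensitive bird of hour 18 for 39 (26.0%) against 27.2%. The Pearson correlation between 2 members over the 13 libraries had a median of 0.19, with quartiles of -0.10 and 0.46. No such value over the filtered genes is given, so it is not read as low or high. For TRINITY_DN94273_c3_g3 the most similar members were TRINITY_DN93069_c1_g2 (r = 0.73 over 13 libraries) and TRINITY_DN91876_c0_g2 (r = 0.71). For TRINITY_DN89268_c2_g1 they were TRINITY_DN96895_c3_g2 (r = 0.90) and TRINITY_DN99501_c0_g1 (r = 0.88). These are descriptions, since libraries of a group share state and hour.

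Contrasts among the 13 libraries do not use the photorefractory birds of hour 18. They were tested over all genes with edgeR's quasi-likelihood test at a Benjamini-Hochberg adjusted p of at most 0.05. The rule did use the lowest level of each gene among these 13. The members' shares and medians beside those of the filtered genes are therefore not free of the choice, and are given as a description. Photorefractory and photosensitive birds of hours 10 and 14 were first compared, with hour in the model. No member was called of 150, and of 43934 genes tested 0% were called higher and 0% lower, as were 0% of the filtered genes. The smallest adjusted p of a member was 0.548. In all, 25 members (16.7%) were under 0.05 without adjustment, 23 of them lower and 2 higher in the photorefractory state, against 9.47% of the filtered genes and 7.81% of all genes. Here and in the contrasts below, the filtered genes under that unadjusted p were not split by direction. The members' split therefore has no background and is a description. DESeq2, with 22 genes higher and 47 lower, and limma on log2(TPM + 1) also called 0 members. The median log2 fold change of the members was -0.18 (quartiles -0.43 and 0.12), with 97 of 150 below 0. That of the filtered genes was 0.07 (quartiles -0.12 and 0.25). On the TPM scale both medians were lower, at -0.26 and -0.02.

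Hour 14 against hour 10, with state in the model, gave no member called by edgeR and 0% of all genes in either direction. An unadjusted p under 0.05 was found for 7 members (4.67%), 3 higher and 4 lower, against 2.64% of the filtered genes and 2.86% of all genes. DESeq2 called no member among its 5 higher and 1 lower gene. The members' median log2 fold change was -0.06 and that of the filtered genes -0.01. The interaction of state and hour 14, which asks whether this change differed between the states, also had no member called, with 0% of all genes by edgeR, whereas DESeq2 called 20 genes higher and 23 lower but no member. Here 17 members (11.3%) were under an unadjusted p of 0.05, against 8.87% of the filtered genes and 9.39% of all genes, with 14 members showing a lower and 3 a higher change in the photorefractory state. The members' median of the interaction was -0.34 and that of the filtered genes -0.16.

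Hour 18 was compared with hour 10 in the photosensitive state, where hour 18 is the time at which the photorefractory birds were low. No member was called by edgeR, with 0% of all 47718 genes tested in either direction, and the smallest adjusted p of a member was 0.524. There were 22 members (14.7%) under an unadjusted p of 0.05, 12 higher and 10 lower, against 9.96% of the filtered genes and 9.52% of all genes. Among 61 higher and 25 lower genes DESeq2 called 1 member, TRINITY_DN99501_c0_g1, as lower (adjusted p 0.0347), a gene that went from 38.5 and 33.7 to 9.19 and 6.84 CPM. The members' median log2 fold change was -0.04, and that of the filtered genes was 0.17. With 2 birds per group, a missing call does not show that the levels were alike, and no difference between this change and that of the photorefractory birds was tested, because the rule used the latter.

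Hour 22 against hour 10, with state in the model and 7 birds, was the only one of the 5 contrasts with members called by edgeR. The quasi-likelihood test called 41 members lower (27.3%) and 6 higher (4%). Over all 54888 genes tested 10.3% were lower and 11.7% higher, and over the filtered genes 22.5% were lower and 11.5% higher. Called log2 fold changes ran from -4.30 to -0.56 among the lower and from 0.71 to 1.99 among the higher. The members' median was -0.38, against -0.22 for the filtered genes. Length moved with this share as well, since 35.5% of the filtered genes in the shortest length class were called lower and 11.8% in the longest. In the 2 shortest classes 39 of 122 members (32.0%) were called lower, against 31.6% of the 6187 filtered genes, so the members' share of lower calls was close to that of genes of their length. Of the same 122 members 4 were called higher, against 7.05% of those filtered genes. Within each state, the birds of hour 22 were below both birds of hour 10 for all 41 members called lower. Across the states, all birds of hour 22 were below all birds of hour 10 for 39 of these 41. The same contrast called these members, so such separation is likely for them. No such share is given for the filtered genes called lower, so both counts are a description.

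In CPM, without the test, all 3 birds of hour 22 were below all 4 of hour 10 for 45 members (30.0%) and above them for 10 (6.67%), and for 28.9% and 19.3% of the filtered genes. These 3 libraries were the 3 deepest, with 8068941 to 9403923 counts, and the part of depth was not tested. The counts moved when single birds were left out. Without the photorefractory bird of hour 22 no photorefractory bird of that hour remains, so the contrast of hours rests on the photosensitive birds. In that fit there were 1 higher and 23 lower members. Then 1322 of 48614 genes were higher and 1903 lower, and 796 and 1013 of the 15463 filtered genes. The members' median log2 fold change was -0.48 there and that of the filtered genes -0.14. These medians were -0.30 and -0.22 without the first photosensitive bird of that hour, and -0.33 and -0.20 without the second. Without the second photosensitive bird of hour 10 they were -0.35 and -0.25. limma on log2(TPM + 1) called 7 members higher and 16 lower, with 13.9% of all genes higher and 5% lower and 11.6% and 7.84% of the filtered genes. That scale moved the median of all genes from 0.11 to 0.23, and the median of the members and of the filtered genes to -0.08 and 0.10.

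TRINITY_DN96895_c3_g2 (longest transcript 796 nt) was the lower call with the smallest p. Its CPM was 30.5 and 40.3 in the photosensitive and 26.0 and 25.8 in the photorefractory birds of hour 10. At hour 22 it was 5.70 and 6.17 in the photosensitive birds and 7.37 in the photorefractory bird. The hours did not overlap in either state, and the log2 fold change was -2.35 (SE 0.23, edgeR adjusted p 0.000703). TRINITY_DN99501_c0_g1, a single transcript of 421 nt, was at 38.5 and 33.7 CPM in the photosensitive and 46.7 and 33.2 CPM in the hour 10 photorefractory birds. At hour 22 it was at 3.84 and 6.70 CPM and at 5.35 CPM, again without overlap, and its log2 fold change was -2.91 (SE 0.29, edgeR adjusted p 0.000744). In the photorefractory birds of hour 18 these genes were at 2.03 and 1.57 CPM and at 0.872 and 0 CPM. The choice of the members fixed that these values lie below those of the birds of hour 22.

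TRINITY_DN92885_c6_g1 (896 nt) and TRINITY_DN87679_c1_g1 (1167 nt) were the higher calls with the smallest p. The first had 15 and 26.3 CPM in the photosensitive and 12 and 26.9 CPM in the hour 10 photorefractory birds. At hour 22 it had 32.4 and 77.8 CPM in the photosensitive birds and 150 CPM in the other. All birds of hour 22 were above those of hour 10, with a log2 fold change of 1.99 (SE 0.39, edgeR adjusted p 0.00729). The second had 18.2 and 15.6 CPM in the photosensitive birds of hour 10 and 19.8 and 20.2 in the photorefractory ones, and then 29.1, 38.2 and, in the photorefractory bird, 41.7 CPM at hour 22. It also had no overlap, with a log2 fold change of 0.93 (SE 0.20, edgeR adjusted p 0.0105). Neither call held without the photorefractory bird of hour 22, where the log2 fold changes were 1.47 and 1.01. That fit compares the hours in the photosensitive birds only. The call of TRINITY_DN87679_c1_g1 was also lost without the second photosensitive bird of that hour, at 0.83. Of the members with the largest gaps, highest TPM or a place at the threshold, TRINITY_DN89268_c2_g1, TRINITY_DN85616_c3_g1, TRINITY_DN82661_c2_g2 and TRINITY_DN90488_c2_g1 were called lower at hour 22, with log2 fold changes of -1.61, -1.03, -4.30 and -1.89 and edgeR adjusted p of 0.00327, 0.00904, 0.00522 and 0.00159. The call of TRINITY_DN85616_c3_g1 was lost on the TPM scale and without either photosensitive bird of hour 22. Also called lower were TRINITY_DN100320_c4_g4 (-1.79), TRINITY_DN84051_c0_g3 (-0.84), TRINITY_DN97175_c2_g1 (-0.80), TRINITY_DN88312_c0_g1 (-0.58) and TRINITY_DN98038_c0_g2 (-0.56), with edgeR adjusted p of 0.00897 to 0.0492. TRINITY_DN94273_c3_g3, with the largest gap, had a log2 fold change of -0.95 and missed the threshold (edgeR adjusted p 0.0525).

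**Figure D5:**
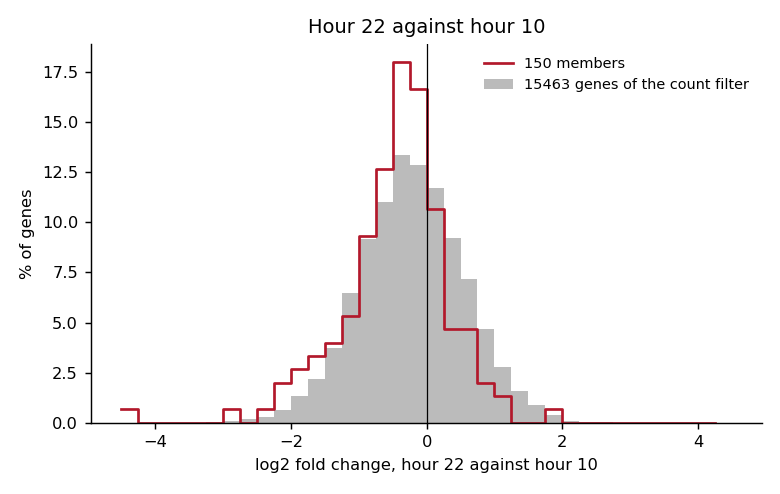
Log2 fold change of hour 22 against hour 10 (x axis, both states in 1 model) as the percentage of genes in steps of 0.25, for the members (red line) and for all genes that passed the count filter (grey bars). The members' median is -0.38 and that of the grey distribution -0.22.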

How the data were processed

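Hypothalamic total RNA of 15 birds, 1 ribo-depleted stranded library per bird, was sequenced by the authors as paired reads on a HiSeq2500. The authors trimmed reads with Trimmomatic, assembled them with Trinity, reduced redundancy with CD-HIT and pseudoaligned to 1 common index with kallisto (version not given in the sources used here). They deposited, per transcript and bird, an estimated count without normalization between birds, TPM, length and effective length, which kallisto derives from the fragment lengths of each library. Each of the 552023 transcripts was assigned to a gene by its identifier, and counts and TPM were summed per gene. Depth was 3176062 to 9403923 estimated counts per library. Groups came from the labels. Kallisto divides reads between similar transcripts, so levels of related sequences are uncertain. The p-values rest on 2 birds or fewer per group, and on a variance that edgeR moderates across genes. Where state and hour were fitted without their interaction, that variance also holds any difference of the change between the states. The p-values do not reach beyond these birds.

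The members, lists and tests were chosen with earlier results of these data known. Tests used edgeR 4.0.16 (quasi-likelihood, TMM factors, R 4.3.3) after rounding the estimated counts, and took genes reaching 5 counts in 4 or more libraries (3 for hour 22, 2 for photosensitive hour 18). Each SE was derived as the absolute log2 fold change divided by the square root of the test's F statistic. The quasi-likelihood test itself gives no SE. The comparisons with hour 22 assume that the single photorefractory bird varies like the others. The alternatives left out each bird, entered bird number as a block, fitted 13 libraries at once, used DESeq2 1.42.0 or RLE factors, raised the minimum to 10 or dropped it, or ran limma 3.58.1 on log2 TPM with a pseudocount of 1 or 0.1. For the choice of members they were a pseudocount of 0.5, TMM scaling, TPM, a minimum of 50, components in place of genes, and each bird left out. The tests were tried on simulated data. Named were the 4 members each of largest gap, highest mean log2(TPM + 1) and highest level in the photorefractory birds of hour 18, the 2 with most transcripts, those at the threshold, and per contrast up to 2 called members in each direction with the smallest p and without overlap in CPM. Figures used matplotlib 3.10.9. Gene names and sequences were not used here.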

Additional observations from a re-analysis of the deposited data

How the results depend on the processing

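The choice of members kept 144 of 150 with a pseudocount of 0.5 and 140 with TMM scaling, but 97 with TPM, 76 with a minimum count of 50 and 90 as components. With 1 bird left out it kept 88 to 150, the lowest values, 88 and 92, when 1 of the photorefractory birds of hour 18 was left out. Of the rests of components below all 13 libraries, 21 of 25 remained with a minimum count, and 21 without the members whose component holds another member (chosen after seeing the data). For hour 22 edgeR called 3475 of the filtered genes lower and 1773 higher, and limma with a pseudocount of 1 called 1213 lower and 1796 higher. In the members limma at either pseudocount called 16 lower and 7 higher, 22 of them among the 47 called by edgeR. Thus 69.6% of its calls in members were lower against 87.2% by edgeR. The share over all genes went from 46.8% by edgeR to 26.4% with a pseudocount of 1 and 28.8% with 0.1. All genes include those below the count filter, which could not be members. The nearer background is the filtered genes, whose lower and higher calls by both methods are given above. Leaving out each bird gave 1 to 10 higher and 23 to 44 lower. With no filter on low counts, contrasts without calls gained some, named after their values were seen. Between the states 1 was lower (TRINITY_DN87610_c4_g3), with 219 higher and 225 lower of 254928 genes. At hour 14 there were 2 higher (TRINITY_DN87610_c4_g3 and TRINITY_DN81107_c3_g1) and 1 lower (TRINITY_DN82661_c2_g2), with 80 higher and 118 lower of 254928 genes. In photosensitive hour 18 there was 1 lower (TRINITY_DN99501_c0_g1, also by DESeq2), with 153 higher and 249 lower of 212990 genes. In the interaction 1 was higher (TRINITY_DN82661_c2_g2), with 236 higher and 178 lower of 254928 genes. Of the filtered genes 115 were higher and 44 lower between the states, 20 and 24 at hour 14, 55 and 93 in photosensitive hour 18, and 49 and 60 in the interaction. The cause was not tested. The calls of TRINITY_DN98038_c0_g2 and TRINITY_DN88312_c0_g1 at hour 22 were lost under 12 and 9 of 15 alternatives. Birds of the same number were not paired by design. Their deviations correlated between -0.51 and 0.27 over 21 pairs of groups, with 7 pairs above 0.1. With the bird number as a replicate block 6 members were higher and 38 lower at hour 22, and no member was called in another contrast. The hour 18 values have wide counting error, since 38 members had at most 5 counts in both photorefractory birds.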
